A study of Homo sapiens with 3 samples.

Results

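The miR-106b-25 and miR-106a-363 hairpins are the precursors of the 2 paralogs of the miR-17-92 polycistron. They were taken here as the clusters whose sense-strand annotation carried the exact name of hsa-mir-106b, hsa-mir-93 or hsa-mir-25, which lie together in an intron of MCM7, or of hsa-mir-106a, hsa-mir-18b, hsa-mir-20b, hsa-mir-19b-2, hsa-mir-92a-2 or hsa-mir-363, which lie together on chromosome X. Of the 9 names, 6 were among the 386 hairpin names that the replicate lists held. They had 6 of 11577 clusters in replicate 1, 4 of 18065 in replicate 2 and 3 of 5099 in replicate 3. The samples were 3 replicates of a PAR-CLIP labelled with T1, made in HEK293, an established human embryonic kidney line, in its Flp-In T-Rex form with FLAG:DICER. Such lines carry an integrated transgene, here for FLAG-tagged DICER; induction and clones are not described in the labels. All libraries share cell line and tag, and no other condition was compared. Separate cultures are not stated for the replicates, so their spread may be technical. In PAR-CLIP a photoreactive uridine analogue is crosslinked to the bound protein, and crosslinked uridines are read as T-to-C conversions. A cluster is a stretch of overlapping reads, and the main value is its number of conversions as deposited by the authors.

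Primary miRNA transcripts of these loci each hold several hairpins. The nuclear enzyme DROSHA cuts the hairpins out, and DICER removes the loop in the cytoplasm to leave a 5p and a 3p arm. The miR-17 family is known for promoting proliferation and survival, through targets such as CDKN1A and BCL2L11. MCM7, the host of miR-106b-25, encodes a subunit of the replicative helicase. The miR-106a-363 locus is a further copy of the same family on chromosome X.

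The arms below, from RefSeq (GRCh38.p14), show how the loci relate, with the seed, bases 2 to 8, in capitals. All 9 members matched the RefSeq table for at least 1 arm. The first set shares 1 seed, and ends with the chromosome 13 relative miR-17.
hsa-miR-106b-5p: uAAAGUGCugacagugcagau
hsa-miR-93-5p: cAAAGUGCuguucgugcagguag
hsa-miR-106a-5p: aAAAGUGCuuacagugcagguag
hsa-miR-20b-5p: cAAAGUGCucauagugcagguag
hsa-miR-17-5p: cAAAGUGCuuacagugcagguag
The second set shares the seed of miR-92a and holds the last hairpins of each locus.
hsa-miR-25-3p: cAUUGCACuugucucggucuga
hsa-miR-363-3p: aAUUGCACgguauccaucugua
hsa-miR-92a-3p: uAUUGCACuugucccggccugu
The remaining seeds have no member in MCM7.
hsa-miR-18b-5p: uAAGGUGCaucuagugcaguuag
hsa-miR-19b-3p: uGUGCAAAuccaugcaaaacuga

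The hairpins of MIR106B (GRCh38.p14 chr7:100093993-100094074, minus strand), with the most conversions of the members, of MIR25 (chr7:100093560-100093643, minus strand), with far fewer from the same transcript, and of the chromosome X relative MIR106A (chrX:134170198-134170278, minus strand) are given in full, with the arms listed in RefSeq in capitals.
MIR106B: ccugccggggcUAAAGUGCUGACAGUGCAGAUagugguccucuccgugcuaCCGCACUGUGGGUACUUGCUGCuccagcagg
MIR25: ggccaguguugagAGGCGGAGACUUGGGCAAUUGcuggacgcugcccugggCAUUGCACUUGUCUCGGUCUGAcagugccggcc
MIR106A: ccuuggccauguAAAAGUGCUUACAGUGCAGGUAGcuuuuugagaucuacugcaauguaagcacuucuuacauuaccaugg

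The 3 hairpins in MCM7 carried clusters in every replicate, and the 6 on chromosome X had few or none. The MCM7 hairpins together had 21685, 19292 and 7401 conversions in replicates 1, 2 and 3, against 44, 1 and 0 for the chromosome X hairpins. The first locus thus held 1.57% ± 0.297 of all listed conversions and the second 0.00115% ± 0.00192 (SD, n = 3). Within the miRNA hairpin conversions of each list the MCM7 locus held 11.4% ± 2.95 and the chromosome X locus 0.00730% ± 0.0120 (SD, n = 3). The difference between the loci was 1.66, 1.82 and 1.24 percentage points of all conversions, with a mean of 1.57 ± 0.297, and each of the 3 was above 0. As a share of all reads, the mean difference was 1.00 percentage points. An exact sign-flip permutation over the replicates, two-sided, gave p = 0.25, the smallest that 3 replicates allow, and an adjusted p = 0.25 over 5 such tests. No RNA level of these loci was analysed here, so more RNA and more binding per RNA cannot be told apart. The contrast between the loci was known from earlier work on these data when they were chosen.

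Counted by presence, all 3 replicates listed a cluster for 3 of 9 members, against 8.26% of RefSeq miRNA genes and 41.5% of the hairpins named in any replicate. All 3 lie in MCM7, and 0 of the 6 on chromosome X reached this. In replicate 1 alone 6 of 9 members had a cluster, against 16.1% of RefSeq miRNA genes. Replicate 2 listed 4 of 9 against 15.3%, and replicate 3 listed 3 of 9 against 9.83%. The series-wide list, whose clusters all have support from 2 or 3 libraries by their own attributes, named 4 of 9 members against 15.4% of miRNA genes, the fourth being hsa-mir-20b. The lists hold selected clusters only, so a hairpin without one is not listed rather than shown to have no reads.

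**Figure D1:**
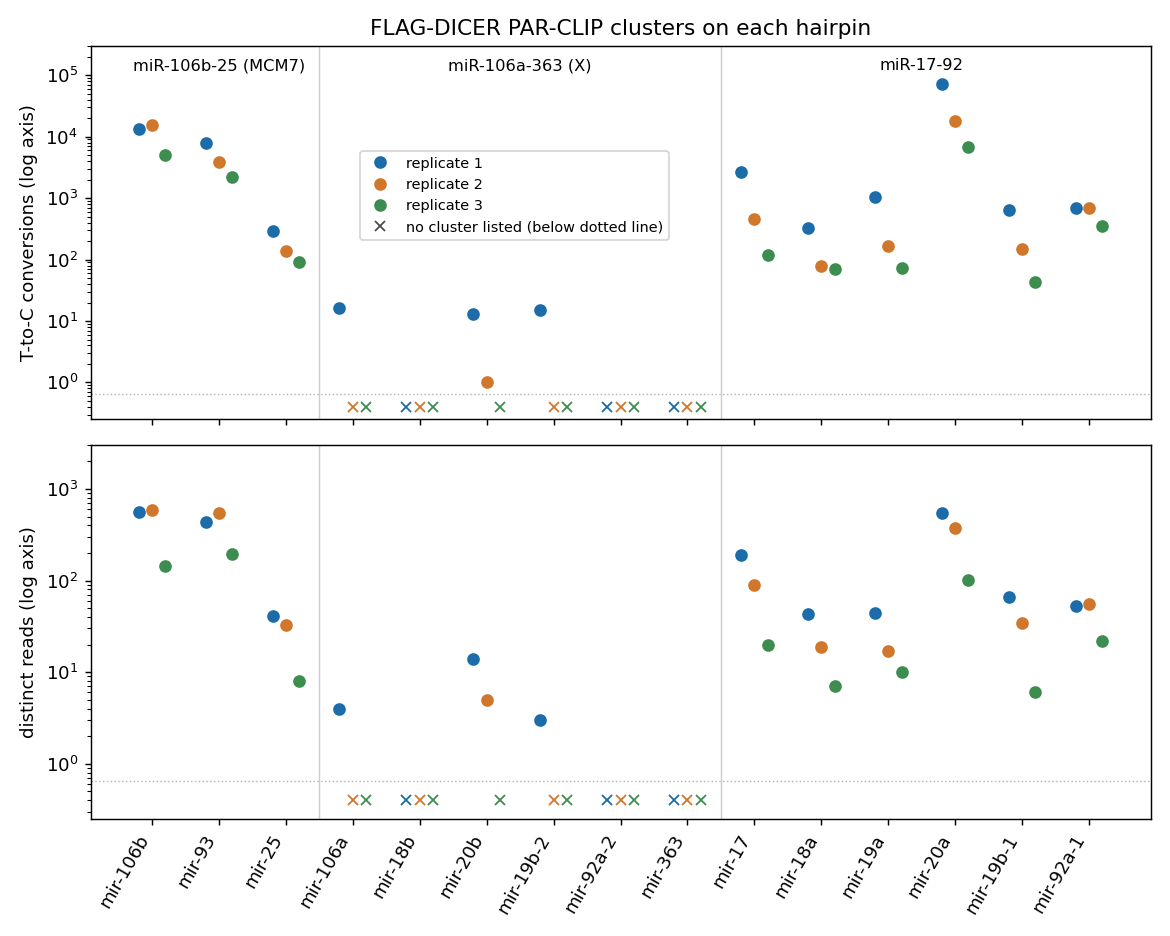
T-to-C conversions (top, log axis) and distinct reads (bottom, log axis) on each hairpin in replicates 1, 2 and 3, for the miR-106b-25, miR-106a-363 and miR-17-92 loci from left to right; a cross below the dotted line marks a hairpin without a listed cluster. The MCM7 hairpins reach 15315 conversions and the chromosome X hairpins no more than 16.

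hsa-mir-106b, the first hairpin of its locus, had 13539, 15315 and 5064 conversions in replicates 1, 2 and 3. It ranked 3 by conversions among the hairpins of each replicate, of 313, 298 and 192, where the median hairpin cluster had 40, 22.5 and 36. Its cluster ended at the same bases in all 3 replicates (hg19 chr7:99691624-99691687, minus strand) and covered 64 nt. RefSeq places the outer ends of its 2 arms 62 nt apart, so the cluster is about as long as the piece that DICER receives. It lay in an intron of MCM7 that the files number 13, 12 or 8 depending on the transcript. Converted positions numbered 17, 17 and 13, against a median of 3, 2 and 1 over all hairpin clusters. The whole hairpin printed above holds 19 uridines, but at 82 nt it is longer than the cluster. The position that the authors list under ccr, which the files do not spell out, was base 31 from the 5′ end of the cluster in each replicate.

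hsa-mir-93, the middle hairpin, shares the seed of hsa-mir-106b and had 7858, 3838 and 2246 conversions. By conversions it ranked 4, 6 and 6. Its cluster (chr7:99691398-99691462 in the series-wide list, minus strand) was 65, 63 and 62 nt long, and the outer ends of its arms lie 61 nt apart in RefSeq. Conversions fell on 16, 16 and 11 positions. The ccr position was base 26 in replicate 1 and base 29 in replicates 2 and 3, so it was less constant than that of hsa-mir-106b. These bases are counted from the 5′ end of each cluster, chr7:99691462 in replicate 1 and chr7:99691460 in replicates 2 and 3.

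hsa-mir-25, the last hairpin, has the seed of miR-92a and had 288, 139 and 91 conversions. It ranked 73, 62 and 55 by conversions. Its cluster (chr7:99691194-99691253, minus strand) had the same ends in all 3 replicates and was 60 nt long, the same length as the RefSeq distance between the outer ends of its arms. Few reads lay behind this full length in replicate 3, where 8 distinct reads and 3 converted positions made up the cluster, against 41 and 33 distinct reads and 11 and 10 positions in replicates 1 and 2. The ccr position was base 20 in replicate 1 and base 30 in the other replicates.

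The clusters of all 3 hairpins were longer than the median hairpin cluster in each replicate. The median hairpin cluster was 41, 35.5 and 29 nt in replicates 1, 2 and 3, and those of hsa-mir-106b were matched or exceeded by 45 of 335, 32 of 322 and 10 of 216 clusters, itself included. Those of hsa-mir-25 were matched or exceeded by 105, 79 and 21. In replicate 1 the clusters of the miR-17-92 hairpins had similar lengths, 60 to 67 nt. They were 22 to 70 nt in replicate 2 and 23 to 62 nt in replicate 3, where hsa-mir-18a and hsa-mir-19a had 2 clusters each per replicate. Between the MCM7 hairpins the lists held almost nothing. Gaps of 161 to 163 nt separated the clusters of hsa-mir-106b and hsa-mir-93, and gaps of 144 or 145 nt those of hsa-mir-93 and hsa-mir-25. Of the replicates, 1 cluster with 1 conversion, in replicate 2, lay in these gaps, and the series-wide list had 1 cluster with 7 conversions there.

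**Figure D2:**
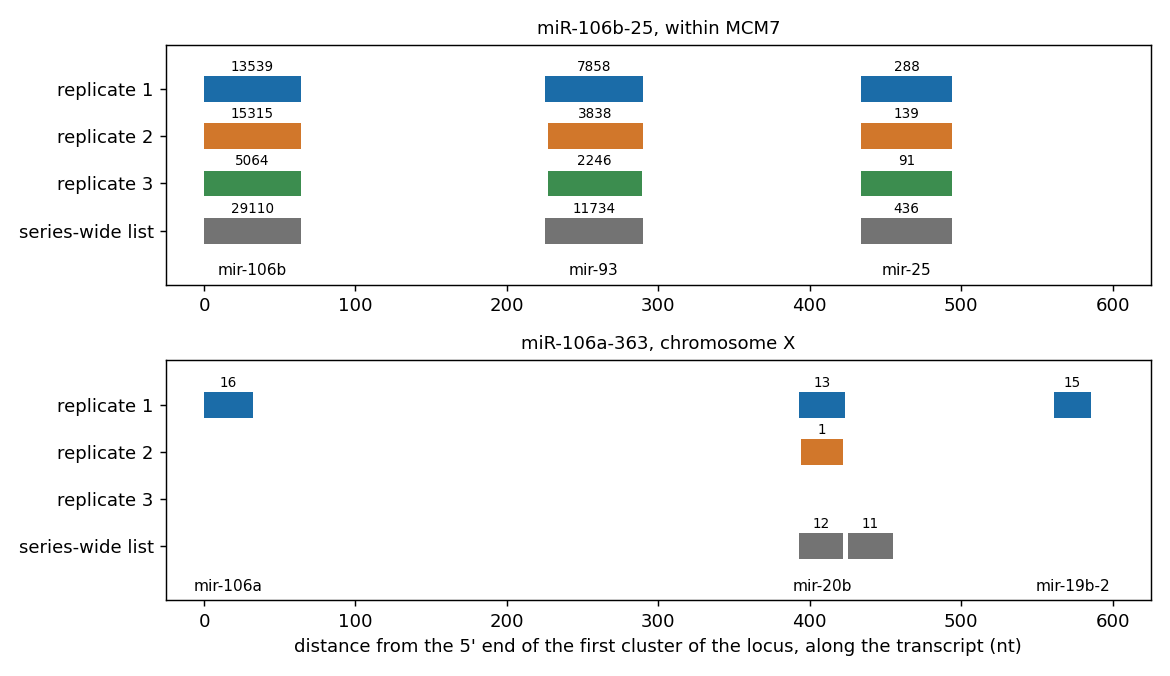
Clusters along the miR-106b-25 locus (top) and the miR-106a-363 locus (bottom), as distance in nt from the 5′ end of the first cluster of each locus along the transcript, in rows for replicates 1, 2 and 3 and the series-wide list; numbers are T-to-C conversions. Each MCM7 hairpin has 1 block of 60 to 65 nt per row, and the chromosome X locus has blocks of 25 to 32 nt and an empty row for replicate 3.

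The hairpins of this transcript differed in level, and the order of the first pair depended on how reads were weighted. hsa-mir-106b exceeded hsa-mir-93 in conversions by 0.78, 2.00 and 1.17 on the log2 scale, with a mean of 1.32 ± 0.62 (SD, n = 3; exact sign-flip permutation p = 0.25, adjusted p = 0.25), or 1.30 per nt of cluster. In distinct reads the same difference was 0.35, 0.09 and -0.44, with a mean of 0.00. The distinct reads were 560, 586 and 144 for hsa-mir-106b and 440, 550 and 195 for hsa-mir-93. By this measure the pair held the ranks 1 and 3 of all hairpins in replicate 1, 1 and 2 in replicate 2, and 2 and 1 in replicate 3. Each distinct read of hsa-mir-106b was seen 29.8 ± 5.80 times and each of hsa-mir-93 14.1 ± 6.12 times (SD, n = 3), which moves with the difference in conversions; its part in the result was not tested.

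hsa-mir-25 was lower than both by either weighting. In conversions hsa-mir-106b exceeded it by 5.55, 6.78 and 5.80 on the log2 scale, with a mean of 6.05 ± 0.65 (SD, n = 3; exact sign-flip permutation p = 0.25, adjusted p = 0.25). hsa-mir-93 exceeded it by 4.77, 4.79 and 4.63, the narrowest spread of the ratios compared, with a mean of 4.73 ± 0.09, a 26.5-fold difference (SD, n = 3; exact sign-flip permutation p = 0.25, adjusted p = 0.25). In distinct reads the excess over hsa-mir-25 on the log2 scale was 4.03 ± 0.22 for hsa-mir-106b and 4.03 ± 0.59 for hsa-mir-93 (SD, n = 3). By that weighting hsa-mir-93 thus had the wider spread. The distinct reads of hsa-mir-25 were seen 8.23 ± 3.45 times each (SD, n = 3).

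**Figure D3:**
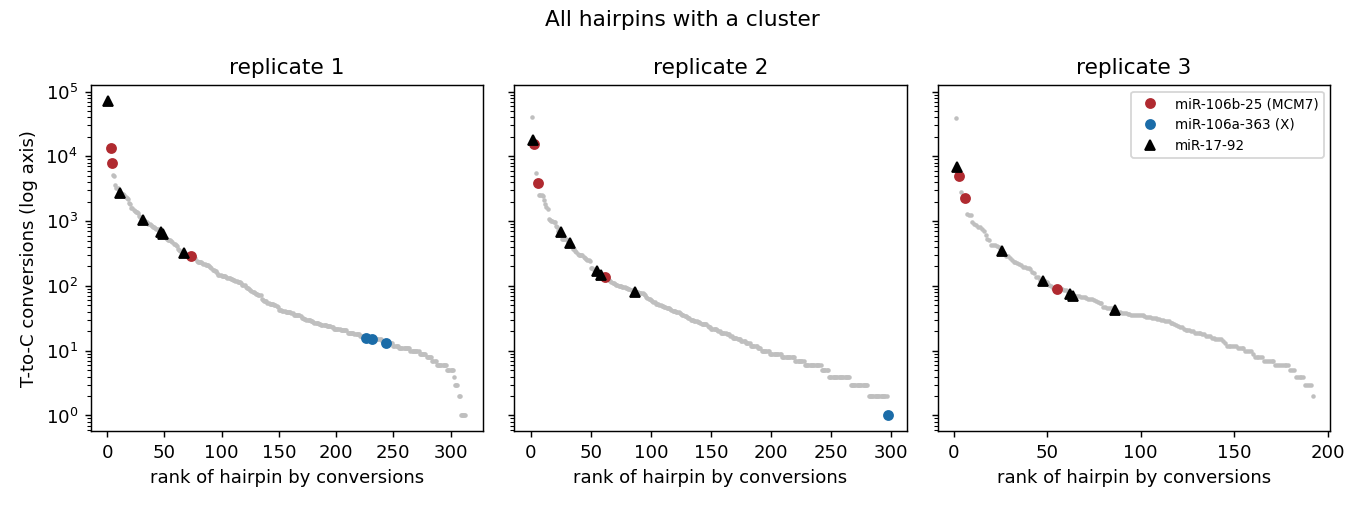
T-to-C conversions (log axis) against rank for all hairpins with a cluster in replicates 1, 2 and 3, with the miR-106b-25, miR-106a-363 and miR-17-92 hairpins marked. hsa-mir-106b stands at rank 3 in each panel, hsa-mir-25 between ranks 55 and 73, and the chromosome X hairpins at rank 226 or beyond.

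Of the chromosome X hairpins, hsa-mir-20b was the one seen more than once. It carries the miR-17 seed, and had 13 conversions in replicate 1 (chrX:133303874-133303903, minus strand) and 1 in replicate 2, where all its reads came from 1 sequencing run. Replicate 3 listed no cluster there. It held 14 and 5 distinct reads in replicates 1 and 2, and by that count ranked 123 of 313 and 172 of 298, against 243 and 297 by conversions. The series-wide list had a pair of clusters on it (chrX:133303875-133303903 and chrX:133303842-133303871), with 12 and 11 conversions, 29 and 30 nt long and 3 nt apart. Together they spanned 62 nt, and the outer ends of its arms lie 60 nt apart in RefSeq, so the pair covered about the length of 1 cluster on an MCM7 hairpin.

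In the replicates, few reads of hsa-mir-20b were converted. Its cluster had 18.6 conversions per 100 reads in replicate 1 (13 of 70, 95% Wilson interval 11.2 to 29.2) and 11.1 in replicate 2 (1 of 9, interval 1.99 to 43.5). The intervals cover counting error only. hsa-mir-106b had 95.5 ± 1.65 and hsa-mir-93 85.8 ± 1.40 conversions per 100 reads (SD, n = 3). hsa-mir-25 had 80.2, 92.7 and 100 in replicates 1, 2 and 3, its cluster in replicate 3 being of another mapping class. The files put clusters in 2 mapping classes, UNIQ40_K0 and UNIQ40_K1, and in UNIQ40_K1 the number of edits equalled the number of reads in 92.9% to 97.4% of clusters, so the rate was compared within UNIQ40_K0. In it the median hairpin cluster had 83.0 and 87.6 conversions per 100 reads in replicates 1 and 2. There, 5 of 176 such clusters lay below hsa-mir-20b in replicate 1 and 0 of 156 in replicate 2. In the series-wide list 0 of 187 lay below its cluster with 74 reads, which had 16.2. Its other series-wide cluster, of class UNIQ40_K1, had 11 conversions on 11 reads. Of all edits in the cluster, T-to-C conversions made up 48.1% in replicate 1, against a median of 94.9% in the class and 98.6% ± 0.374 for hsa-mir-106b (SD, n = 3). This pattern was picked out after its values were seen.

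hsa-mir-106a and hsa-mir-19b-2 had a cluster in replicate 1 alone. hsa-mir-106a, the first hairpin of its locus, had 16 conversions on 21 reads and 4 distinct reads (chrX:133304265-133304296, minus strand, 32 nt), with conversions from 1 of the 2 sequencing runs. hsa-mir-19b-2, which gives the same 3p arm as MIR19B1, had 15 conversions on 15 reads and 3 distinct reads (chrX:133303711-133303735, 25 nt), all from 1 run. RefSeq lists 23 nt each for miR-106a-5p and miR-19b-3p. hsa-mir-18b, hsa-mir-92a-2 and hsa-mir-363 had no cluster in any of the 4 lists.

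**Figure D4:**
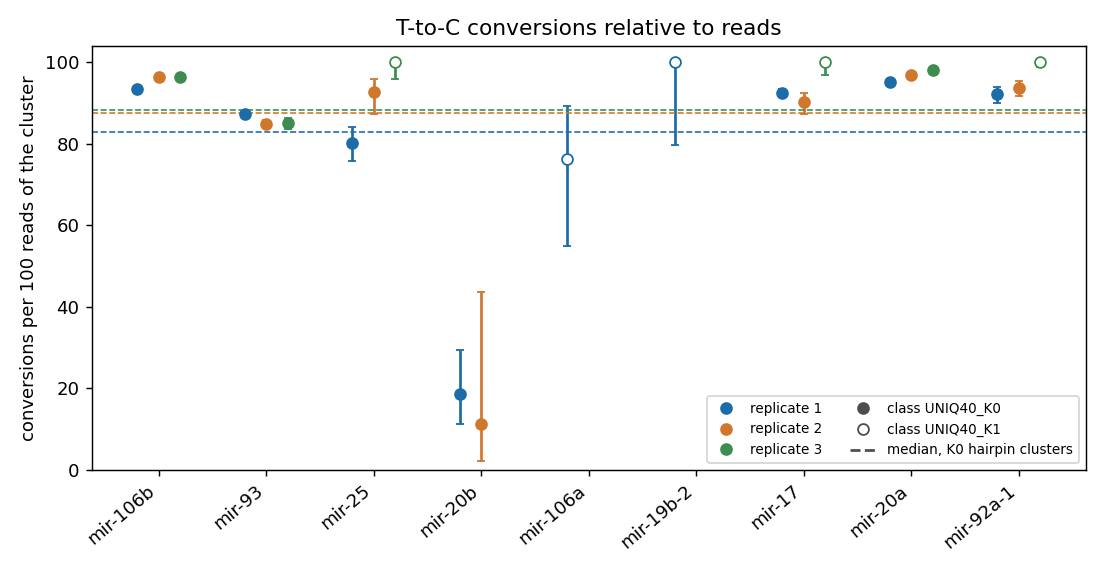
T-to-C conversions per 100 reads of each cluster, with 95% Wilson intervals, for the listed members and for mir-17, mir-20a and mir-92a-1 of miR-17-92 in replicates 1, 2 and 3; filled points are mapping class UNIQ40_K0, open points UNIQ40_K1, and dashed lines the median of all hairpin clusters of class UNIQ40_K0 in each replicate. hsa-mir-20b lies at 18.6 and 11.1, below the medians of 83.0 and 87.6.

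Part of the chromosome X sequence is shared with other hairpins. The longest stretch that MIR92A2 shares with any other RefSeq hairpin is 23 nt, with MIR92A1, and the corresponding stretch is 25 nt for MIR19B2 with MIR19B1, 22 nt for MIR106A with MIR17 and 19 nt for MIR18B with MIR18A. The miR-92a-3p and miR-19b-3p arms are identical on chromosome X and in miR-17-92. In MCM7 the longest shared stretch is 13 nt for MIR106B and 13 nt for MIR25. For MIR363, which had no cluster, it is 11 nt. The 5p arms of MIR93 and MIR20B share at most 10 and 13 nt with another entry, for MIR20B with MIR20A. Where the 5p arms of MIR20A and MIR20B differ, MIR20A has U and MIR20B has C. A T-to-C conversion reads as the same exchange, so the longest exact stretch understates this likeness. The shortest listed cluster of the series is 19 nt. How reads of such stretches were assigned was not tested. Their part in the low values on chromosome X, or in the reads listed on hsa-mir-20b, was not tested either. hsa-mir-17, hsa-mir-18a, hsa-mir-19b-1 and hsa-mir-92a-1 themselves had 118 to 2707, 69 to 326, 43 to 640 and 351 to 690 conversions over the replicates. For hsa-mir-20a the range was 6817 to 72507.

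Set beside miR-17-92 on chromosome 13, the MCM7 locus was level with it in 2 of 3 replicates by conversions and above it by distinct reads. Its sum was lower by 1.85, 0.02 and 0.01 on the log2 scale in replicates 1, 2 and 3, giving a mean log2 ratio of -0.63 ± 1.06 (SD, n = 3; exact sign-flip permutation p = 0.25, adjusted p = 0.25), and -0.02 without replicate 1. hsa-mir-20a held 93.0%, 92.1% and 91.2% of the miR-17-92 conversions, and each of its distinct reads was seen 86.0 ± 47.0 times (SD, n = 3). With distinct reads as the weight the mean ratio was 0.73 ± 0.51, with 0.15, 0.99 and 1.06 in the replicates (SD, n = 3; exact sign-flip permutation p = 0.25). Per nt of cluster the mean log2 ratio was 0.25 ± 0.96, with -0.85, 0.91 and 0.69 in the replicates (SD, n = 3). Without hsa-mir-20a the mean was 3.05. The sign of the mean thus changed with distinct reads as the weight, with division by the summed cluster length, and with hsa-mir-20a left out. Per nt of cluster, replicate 1 kept the direction seen in conversions.

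By seed, hairpins with the seed AAAGUGC had 21397, 19153 and 7310 conversions in MCM7, 29, 1 and 0 on chromosome X, and 75214, 18434 and 6935 in miR-17-92. In distinct reads the same hairpins had 1000, 1136 and 339 in MCM7, against 18, 5 and 0 on chromosome X and 735, 462 and 121 in miR-17-92. With the seed AUUGCAC, hsa-mir-25 had 288, 139 and 91 conversions, while hsa-mir-92a-2 and hsa-mir-363 had no cluster and hsa-mir-92a-1 had 683, 690 and 351. hsa-mir-25 was therefore below hsa-mir-92a-1 in each replicate, also in distinct reads, with 41, 33 and 8 against 53, 56 and 22.

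Outside the hairpins, MCM7 carried few conversions. The hairpins held 99.6%, 99.6% and 100% of the conversions on the sense strand of this gene. The rest were 91 conversions in 6 clusters in replicate 1 and 73 in 10 clusters in replicate 2, of which 5 and 7 touched an exon, and replicate 3 had none listed. The strongest of them had 27 conversions. Fewer reads of the host message and less binding to it cannot be told apart here.

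The hairpins most like the MCM7 members in their share of conversions over the 3 replicates were found by Euclidean distance of log2 shares among the 151 hairpins listed in all 3 replicates outside the members and miR-17-92. hsa-mir-25 lay closest to MIR130A, at 0.65, with 231, 120 and 63 conversions, and next to MIR1301, at 0.76. hsa-mir-93 lay closest to MIR504, at 1.17, with 5153, 2509 and 1302, and next to MIR222, at 1.63. For hsa-mir-106b the nearest, MIR221 and MIR222, were 3.28 and 3.29 away. MIR221 had 14716, 40011 and 39618 conversions, above hsa-mir-106b in each replicate.

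Among 24 genes known as targets of these seeds, 2 had a cluster on an exon in all 3 replicates, against 5.23% of RefSeq protein-coding genes, and 9 had none in any replicate, against 68.5% of these genes. Both are transcription factors of the cell cycle. E2F1 had 217, 82 and 70 conversions, and E2F2, named after its values were seen, had 44, 13 and 10. Of the others with most conversions in the series-wide list, E2F3 had 131 and 24 in replicates 1 and 2, the repressor ZBTB4 had 58 and 6, and the cell cycle inhibitor CDKN1A had 52 and 16, each with no listed cluster in replicate 3. Among regulators of these loci, E2F1 was listed in all 3 replicates, and MYC and MYCN in none. Among 22 miRNAs typical of tissues other than kidney cell lines, 18 were listed in no replicate, against 80.1% of RefSeq miRNA genes, so this share was near that of all miRNAs. MIR141, an epithelial miRNA named after its values were seen, was listed in all 3, with 217, 72 and 32 conversions. MIR200C, the other epithelial miRNA of this set, was listed in no replicate.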

How the data were processed

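T-to-C conversions per cluster were deposited by the authors as a raw count, not normalised, in a list for each replicate and in a list of the whole series; reads, distinct reads and annotation stand beside them. Bowtie2 2.1.0 and hg19 are named in the submitters' processing notes. Per the file headers and attributes, clusters have an estimated false discovery rate of 5% and the replicate lists were filtered by length. An entropy score by the authors was not used. Listed conversions totalled 1306125, 1060791 and 595487 in replicates 1, 2 and 3, with 109404, 111514 and 29416 distinct reads, each seen 18.6, 17.8 and 33.8 times. These totals are of listed clusters, not sequencing depth, and repeated reads may be copies of 1 molecule.

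From these, conversions were summed per hairpin and divided by list totals (Python 3.11.15, NumPy 2.4.6, SciPy 1.17.1). The 5 differences were tested by exact sign-flip permutation with Benjamini-Hochberg adjustment. Sums and calls were checked on simulated clusters. Members and lists were chosen with earlier results of these data known. Genes named were the members, the miR-17-92 hairpins, MCM7, the 2 nearest hairpins of each member listed in all 3 replicates, and up to 4 other genes of the pathway by conversions in the series-wide list; others are marked where named, and some list members are not reported here. Of 386 hairpin names, 380 matched RefSeq symbols of GRCh38.p14, by name alone; hg19 and GRCh38 coordinates were not converted. Alternatives were leaving out replicates, other read weights, 3 or more distinct reads, overlap rules and, added after the data were seen, conversions per nt and leaving out hsa-mir-20a.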

Additional observations from a re-analysis of the deposited data

Results flagged for a closer look

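A cluster lay on the strand opposite hsa-mir-93 (hg19 chr7:99691401-99691463, plus strand in replicate 1), in data that the comparisons above do not use. It had 14 conversions in replicate 1, on 23 reads and 4 distinct reads and at 1 position, and 2 conversions in replicate 2, with none listed in replicate 3 and 15 in the series-wide list. The sense cluster had 7858, 3838 and 2246 conversions. The value of 14 is above the 3 counts that a count of 0 would allow. That bound holds for independent counts, whereas the 23 reads here were 4 distinct reads seen repeatedly. It therefore does not decide whether this cluster stands above background, and no library without the tag was analysed here.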

How the results depend on the processing

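The locus difference kept its direction under 8 alternatives, with 1.45 to 1.74 percentage points on leaving out 1 replicate. It was 1.00 in all reads and 1.05 in distinct reads, against 1.57 in conversions. The loci were chosen with this contrast known, so the kept direction is no support for it. Keeping only clusters that name 1 hairpin could change no value, because no listed cluster named several. Asking for 3 or more distinct reads left the ratios within MCM7 as they were. These ratios kept the sign of their mean under 8 alternatives each. For hsa-mir-106b against hsa-mir-93 that mean was 0.00 in distinct reads, with replicate 3 reversed at -0.44, so the order of this pair was not kept there. In conversions without 1 replicate, hsa-mir-106b against hsa-mir-93 ranged from 0.98 to 1.58. The range was 5.68 to 6.29 for hsa-mir-106b against hsa-mir-25 and 4.70 to 4.78 for hsa-mir-93 against hsa-mir-25. The ratio of miR-106b-25 to miR-17-92, -0.63 by conversions, turned to 0.73 in distinct reads, 0.25 per nt of cluster and 3.05 without hsa-mir-20a. The last follows from dropping the miR-17-92 hairpin with most conversions. The value per nt follows from dividing by cluster length, summed over 3 hairpins in MCM7 and 6 in miR-17-92. Its SD was 0.96, and replicate 1 stayed negative at -0.85. The cause of the change in distinct reads was not tested. By conversions this ratio ranged from -0.93 to -0.02 on leaving out 1 replicate. The count of 3 members was 3 or 4 under 7 alternatives. Shares of single MCM7 hairpins moved by more than 1 SD in 8 of the values recomputed. All of these were under other read weights or as the share of hairpin conversions, which divides by a smaller total. Of all values recomputed, 58 kept their call. The 58 include the mean of 0.00 for hsa-mir-106b against hsa-mir-93 in distinct reads. No paired analysis was possible because there is 1 group. With 3 replicates, no test here could pass 0.05, so unchanged calls say nothing about stability. Low counts limit hsa-mir-20b, hsa-mir-106a and hsa-mir-19b-2.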
